A study of Homo sapiens with 6 samples.

Results

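The genes described here are 10 antioxidant genes of human cells: the catalytic and modifier subunits of glutamate-cysteine ligase (GCLC and GCLM), glutathione reductase (GSR), thioredoxin (TXN), thioredoxin reductase 1 (TXNRD1), sulfiredoxin (SRXN1), peroxiredoxin 1 (PRDX1), the cystine transporter SLC7A11, glutathione peroxidase 2 (GPX2) and haem oxygenase 1 (HMOX1). They are a list of symbols of glutathione synthesis, cystine import and the thioredoxin system, drawn up with earlier results of these data known. HMOX1 breaks down haem and belongs to neither system by its chemistry. All 10 symbols matched a gene identifier among the 60483 in the count tables, and 9 of the 10 passed the filter on low counts, which kept 14732 genes. GPX2 had 0 reads in all 6 libraries and was not tested.

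The RNA came from T98G, an established human glioblastoma cell line, in 3 groups of 2 libraries. The oeSRPK1 cells were transiently transfected with full-length SRPK1 cDNA in pcDNA3.1. The shSRPK1 cells were transiently transfected with a short hairpin against SRPK1 in the pLKO.1 vector. The NT cells were untreated. SRPK1 is a kinase that phosphorylates the serine- and arginine-rich proteins of the splicing machinery. No library of cells that received reagent and an empty or non-targeting vector was used here, so the transfection and the construct change together against NT. The oeSRPK1 and shSRPK1 cells share the lipid reagent but differ in vector as well as insert. Each library is a bulk sample, in which fewer cells of a type and less RNA per cell cannot be told apart, and the labels do not say what share of the cells took up a plasmid.

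Glutathione is a small thiol that reduces peroxides and conjugates reactive compounds. SLC7A11 brings in cystine in exchange for glutamate, the cystine is reduced to cysteine, and the GCLC and GCLM heterodimer joins cysteine to glutamate in the rate-limiting step of glutathione synthesis. GSR uses NADPH to return oxidised glutathione to its reduced form. In the parallel system the selenoenzyme TXNRD1 uses NADPH to reduce TXN, TXN reduces peroxiredoxins such as PRDX1, and SRXN1 repairs peroxiredoxins whose cysteine has been overoxidised. Most of these genes are known targets of the transcription factor NRF2 (gene NFE2L2), which binds the antioxidant response element (ARE), and glioma cells are known for high cystine import.

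Start-site windows of RefSeq (GRCh38.p14), each from 250 bases before to 50 bases after a start, were held for 6 of the 10 genes, in 7 windows. The ARE core was searched on both strands as the letters TGACNNNGC. It was found in 4 of these windows, of GCLM, both starts of TXNRD1 and GPX2, and in 13.3% of the 35116 windows of all genes. The windows of GCLC, TXN and SRXN1 held no match, which says only that these letters are not there. None of the 4 matches overlapped the related AP-1 letters TGACTCA, present in 4.95% of all windows. The matches are shown because this element is the sequence by which these genes are usually grouped. The capitals mark the letters of the match and each sequence reads 5′ to 3′ along its gene. A match is a description of sequence and not a measured binding site.
GCLM: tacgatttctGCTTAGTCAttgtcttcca
TXNRD1, upstream start: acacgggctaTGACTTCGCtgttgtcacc
TXNRD1, downstream start: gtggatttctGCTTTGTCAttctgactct
GPX2: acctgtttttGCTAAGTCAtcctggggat
The GCLM sequence lies at chr1:93909446-93909474 on the minus strand, and its match begins at position -34 from the start. The TXNRD1 sequences lie at chr12:104215670-104215698 and chr12:104286920-104286948 on the plus strand, with matches at positions -99 and -102 from their own starts. The GPX2 sequence lies at chr14:64942849-64942877 on the minus strand, with its match at -122. In GCLM, the downstream TXNRD1 start and GPX2 the letters run on the strand opposite to the gene. GCLM and TXNRD1 were strongly read in all 6 libraries, while GPX2, whose window also matches TGACNNNGC, had 0 reads. The matches differ from each other at the N positions.

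Reads assigned to genes numbered 22691215 and 3891549 in the oeSRPK1 libraries, 13650909 and 10792385 in the shSRPK1 libraries, and 9891606 and 13634038 in the NT libraries. No 2 libraries held identical counts. The 10 glioma markers were VIM, CD44, NES, CAV1, S100A6, ANXA1 and FN1 of a mesenchymal line, with GFAP, OLIG2 and SOX2 beside them. Of these, 8 had at least 3 reads in every library, NES and OLIG2 on few reads (5 and 8 in the second oeSRPK1 library). SOX2 was at 0 throughout, and GFAP had 1 read in 1 shSRPK1 library and 0 elsewhere. Summed, these 10 markers reached 11736 and 10844 CPM (a gene's reads relative to the scaled depth of its library) in oeSRPK1, 10545 and 8269 CPM in shSRPK1, and 7665 and 8450 CPM in NT. Skeletal muscle markers summed to 225 and 2674 CPM in oeSRPK1, with 9 and 8 of 10 genes at 3 reads or more, against 1.51 and 12.9 CPM in shSRPK1 and 0.874 and 1.69 CPM in NT. Macrophage markers summed to between 1.13 and 8.27 CPM, with 1 or 2 of 7 genes at 3 reads or more.

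SRPK1 itself, on chromosome 6, was read at 190.3 and 168 CPM in oeSRPK1, 113 and 140.1 CPM in shSRPK1, and 153 and 140.4 CPM in NT. The log2 fold change was 0.29 ± 0.14 (SE, here and below) for oeSRPK1 against NT, with an adjusted p of 0.175 in edgeR's quasi-likelihood test with Benjamini-Hochberg adjustment over all genes tested. For shSRPK1 against NT it was -0.21 ± 0.14 (adjusted p = 0.360), and without the second shSRPK1 library it was -0.37 (adjusted p = 0.0208, range over all alternatives 0.0208 to 0.786). The 2 construct groups differed, with 0.50 ± 0.14 for oeSRPK1 against shSRPK1 (adjusted p = 0.0377, range over all alternatives 0.000273 to 0.308). The group names below are those of the labels.

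The 2 subunits of glutamate-cysteine ligase were both lowest in the oeSRPK1 libraries. GCLC (chromosome 6, 53497341 to 53616970, minus strand, GRCh38) was read at 173 and 224 CPM in oeSRPK1, 542 and 1233 CPM in shSRPK1, and 584 and 579 CPM in NT. The second shSRPK1 library stood above all others and the first just below NT, so shSRPK1 and NT overlapped, while oeSRPK1 overlapped with neither. GCLM (chromosome 1, 93885205 to 93909456, minus strand) had 62.7 and 77.0 CPM in oeSRPK1, 129 and 352 CPM in shSRPK1, and 307 and 291 CPM in NT. The order of the 6 libraries was the same as for GCLC, and again the 2 shSRPK1 libraries lay on either side of the NT pair.

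SLC7A11, the cystine transporter (chromosome 4, 138164097 to 138242349, minus strand), had 905 and 828 CPM in oeSRPK1, 551 and 1318 CPM in shSRPK1, and 1627 and 1554 CPM in NT. Both construct groups lay below NT, but the oeSRPK1 values fell between those of the 2 shSRPK1 libraries. GSR, which recycles oxidised glutathione (chromosome 8, 30678061 to 30727999, minus strand), had 158 and 166 CPM in oeSRPK1, 216 and 292 CPM in shSRPK1, and 331 and 302 CPM in NT. Its 3 groups did not overlap, with oeSRPK1 lowest and NT highest.

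In the thioredoxin system, TXN (chromosome 9, 110243811 to 110256640, minus strand) had 251 and 286 CPM in oeSRPK1, 354 and 507 CPM in shSRPK1, and 480.1 and 456 CPM in NT. The shSRPK1 pair straddled NT and the oeSRPK1 pair lay below both. TXNRD1 (chromosome 12, 104215779 to 104350305, plus strand), its reductase, had 1565 and 1504 CPM in oeSRPK1, 1633 and 2609 CPM in shSRPK1, and 3222 and 2904 CPM in NT. The 3 groups did not overlap, although the first shSRPK1 library lay close to the oeSRPK1 pair.

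PRDX1, an abundant peroxiredoxin (chromosome 1, 45511036 to 45523047, minus strand), had 493 and 591 CPM in oeSRPK1, 1167 and 1123 CPM in shSRPK1, and 1399 and 1352 CPM in NT. Its 3 groups did not overlap, with oeSRPK1 far below the other two, and PRDX1 was the tested member whose shSRPK1 libraries lay closest together. Of its exon bases, 379 of 1522 (24.9%) overlap MMACHC on the opposite strand, a gene with 51 to 185 reads per library, and the strand setting of the counting was not given in the sources used here.

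SRXN1 (chromosome 20, 646615 to 653370, minus strand) was hardly read. It had 0.360 and 0.517 CPM in oeSRPK1, 0.831 and 1.72 CPM in shSRPK1, and 1.26 and 1.55 CPM in NT, from 8 and 2 reads, 11 and 18 reads, and 13 and 22 reads. The value in the second oeSRPK1 library lies under the limit of 3 counts, which is 0.776 CPM there. In GENCODE 29, 2292 of the 2698 exon bases of SRXN1 (85.0%) are shared with AL121758.1 on the same strand. The deposited counts also list AL121758.1, at 0 reads in all libraries. Between 3.04% and 3.37% of reads were set aside as ambiguous. Reads of the shared bases may be among these, but the counting rule is not known here, so the level of SRXN1 may be understated. SRXN1 also passed the low-count filter only through NT and shSRPK1 libraries, so a lower value in oeSRPK1 was in part selected for. Its results below carry both limits.

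HMOX1 (chromosome 22, 35380361 to 35394214, plus strand) departed from the rest. It had 21.9 and 23.5 CPM in oeSRPK1, 73.2 and 38.2 CPM in shSRPK1, and 29.1 and 22.5 CPM in NT. The oeSRPK1 and NT values overlapped, both shSRPK1 libraries lay above all 4 others, and the higher of them was the first, which was the lower one for 7 of the other 8 tested members. GPX2, a peroxidase known from gut epithelium (chromosome 14, 64939152 to 64942905, minus strand), had 0 reads, and 3 counts would correspond to 0.135 and 0.776 CPM in oeSRPK1, 0.227 and 0.287 CPM in shSRPK1, and 0.291 and 0.212 CPM in NT. These limits cover counting error only.

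**Figure D1:**
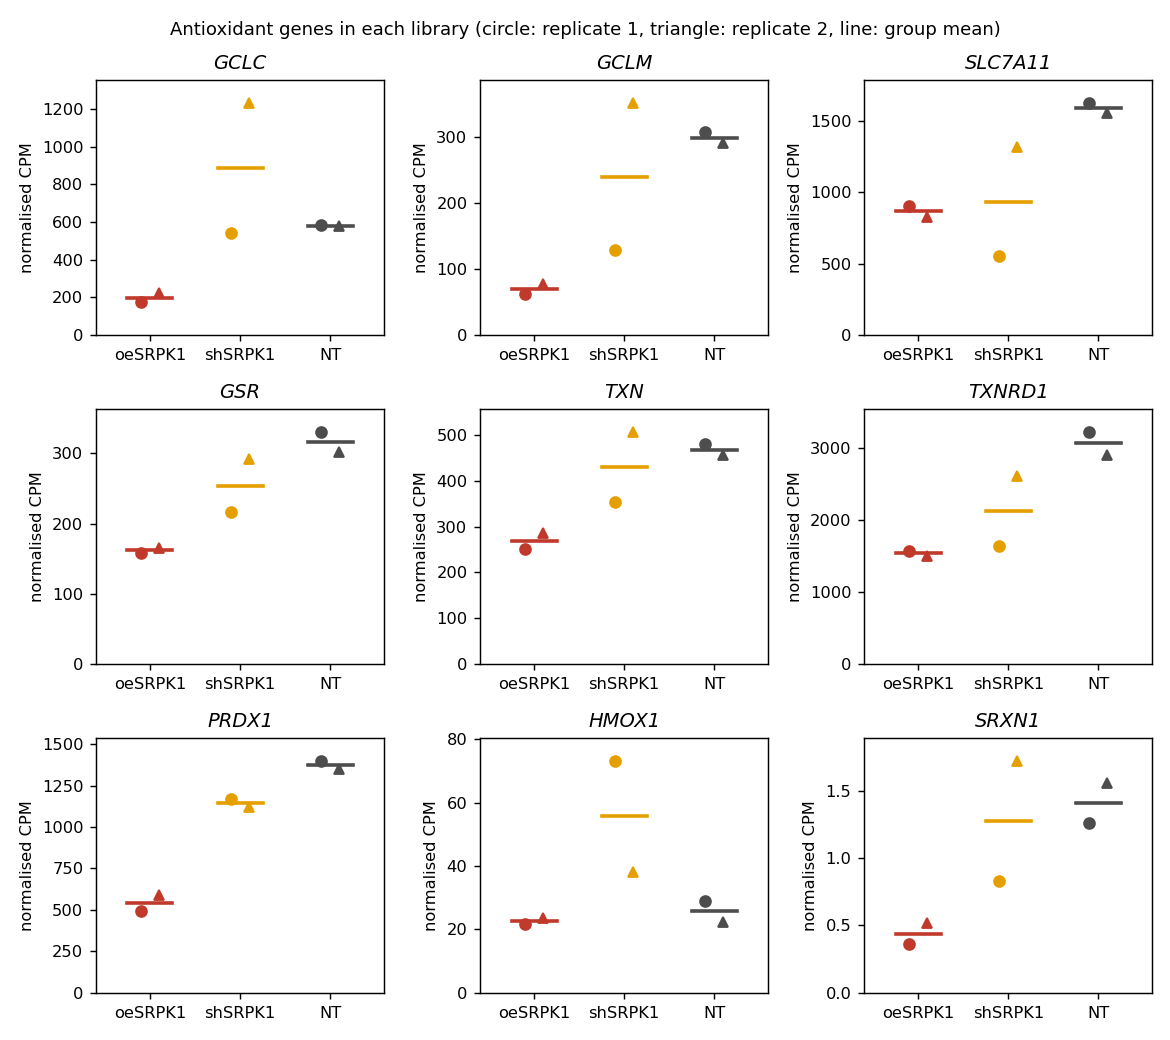
Level of each of the 9 tested antioxidant genes in the 6 libraries, in CPM on a linear axis from 0 that differs between panels, with a circle for the first library of a group, a triangle for the second and a line at the group's mean (n = 2). GCLC lies at 173 and 224 CPM in oeSRPK1, below all 4 other libraries, while its shSRPK1 points at 542 and 1233 CPM lie on either side of the NT points.

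Against NT, the oeSRPK1 libraries had lower RNA of the ligase subunits, of GSR and of the thioredoxin genes, down to 0.232 times the NT level in GCLM. PRDX1 had the smallest adjusted p, with a log2 fold change of -1.35 ± 0.14, which is 0.394 times NT with a 95% interval of 0.312 to 0.496 (adjusted p = 0.00142). GCLM had the lowest ratio at 0.232 times NT (0.0997 to 0.539, log2 -2.11 ± 0.48, adjusted p = 0.0368) and GCLC was at 0.340 times NT (0.182 to 0.636, log2 -1.56 ± 0.37, adjusted p = 0.0329). The fit takes 1 estimate of spread per gene over all groups, so the distance between the shSRPK1 libraries enters the errors of these 2 subunits. GSR was at 0.512 times NT (0.396 to 0.660, adjusted p = 0.00671), TXNRD1 at 0.501 times (0.352 to 0.712, adjusted p = 0.0183) and TXN at 0.573 times (0.429 to 0.765, adjusted p = 0.0194). SRXN1, from its few reads, was at 0.280 times NT (0.113 to 0.671, adjusted p = 0.0499) and was not called by DESeq2 (adjusted p = 0.138, range over all alternatives 0.00459 to 0.436). SLC7A11 had a log2 fold change of -0.88 ± 0.37 (adjusted p = 0.146) and HMOX1 one of -0.19 ± 0.31 (adjusted p = 0.708), and neither was called.

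In all, 7 of the 9 tested members were called lower and 0 higher in oeSRPK1 than in NT. Of all tested genes, 9.45% were called lower and 11.2% higher. SRXN1, among the 7, passed the filter only through the other groups, so its call is no independent support. At an unadjusted p under 0.05 the counts were 7 lower and 0 higher, and DESeq2 called 6 lower and 0 higher. In 8 of the 9, HMOX1 being the exception, both oeSRPK1 libraries lay below both NT libraries, as they did in 34.6% of all tested genes. The median log2 fold change of the members was -1.0, beside 0.00 over all tested genes. The calls depended on having every library of the pair: without either NT library or either oeSRPK1 library PRDX1 alone stayed called (adjusted p between 0.0199 and 0.0440), and the other 6 had adjusted p between 0.0539 and 0.436. Without the first or the second shSRPK1 library, which enter this comparison only through the shared spread, 8 members were called lower, SLC7A11 being added. The fold changes moved little: without the second oeSRPK1 library, the one with 2674 CPM of muscle markers, the log2 values were -1.75 for GCLC, -2.25 for GCLM and -1.48 for PRDX1, and without the first they were -1.41, -1.99 and -1.25. The first oeSRPK1 library itself held 225 CPM of muscle markers, above the NT libraries, and the part of the muscle markers in these results was not tested.

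**Figure D2:**
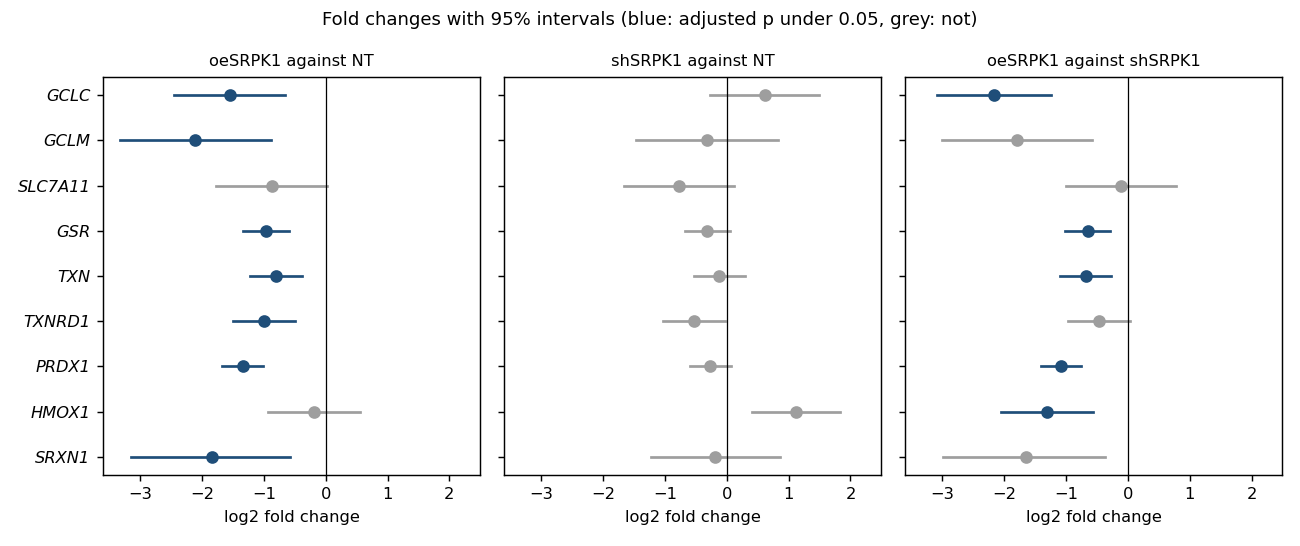
Log2 fold change of each of the 9 tested genes in the 3 comparisons, with lines for the 95% interval, in blue for an adjusted p under 0.05 and grey otherwise in edgeR's quasi-likelihood test (2 libraries per group). For oeSRPK1 against NT, 7 genes are called and all lie below 0, with GCLM lowest at -2.11, while for shSRPK1 against NT none is called. SRXN1, among the 7, passed the low-count filter only through the other groups.

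Against NT, the shSRPK1 libraries gave no called member in either direction, where 5.43% of all tested genes were called higher and 3.75% lower by edgeR. At an unadjusted p under 0.05, HMOX1 was higher and TXNRD1 lower, and DESeq2 called HMOX1 higher (adjusted p = 0.00573) and no other. HMOX1 had a log2 fold change of 1.12 ± 0.30, or 2.17 times NT with a 95% interval of 1.32 to 3.57 (adjusted p = 0.0649, range over all alternatives 1.41e-09 to 0.293). For the ligase subunits the estimates were 1.53 times NT for GCLC (0.830 to 2.81, adjusted p = 0.319) and 0.802 times for GCLM (0.361 to 1.78, adjusted p = 0.694). The intervals leave room for changes in either direction. TXNRD1 was at 0.693 times NT (0.489 to 0.982, adjusted p = 0.156), SLC7A11 at 0.588 times (0.317 to 1.09, adjusted p = 0.227), GSR at 0.804 times (0.625 to 1.03, adjusted p = 0.227) and PRDX1 at 0.833 times (0.664 to 1.04, adjusted p = 0.257). In these 4 both shSRPK1 libraries lay below both NT libraries, an arrangement found in 28.7% of all tested genes, and in HMOX1 both lay above, as in 28.8%. TXN was at 0.920 times NT (0.691 to 1.22, adjusted p = 0.699) and SRXN1 at 0.880 times (0.427 to 1.81, adjusted p = 0.823).

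The 2 shSRPK1 libraries disagreed over most of these genes. The second had 2.74 times the GCLM level of the first, 2.39 times the SLC7A11 level, 2.27 times the GCLC level and, from few reads, 2.07 times the SRXN1 level. TXNRD1 was 1.60 times, TXN 1.43 times and GSR 1.35 times as high in the second library, whereas PRDX1 was 1.04 times and HMOX1 1.92 times as high in the first. Thus 7 of 9 members were higher in the second library, with log2 differences of 1.45 for GCLM, 1.26 for SLC7A11 and 1.18 for GCLC. Ranked among all tested genes by this difference, GCLM stood at percentile 98.6, SLC7A11 at 97.8 and GCLC at 97.4, with HMOX1 at 4.07 near the opposite end. The median size of the difference was 0.92 over the members and 0.27 over all tested genes. In oeSRPK1 the same medians were 0.19 and 0.16, and in NT 0.08 and 0.13. A difference above 1 in size was found in 3 of 9 members in shSRPK1, beside 7.23% of all tested genes there, and in 0 of 9 members in oeSRPK1 and NT, beside 4.0% and 1.83% of all tested genes. The shSRPK1 pair was also the least alike over the transcriptome, with a Pearson r of log2 CPM of 0.975, against 0.984 for oeSRPK1 and 0.992 for NT.

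**Figure D3:**
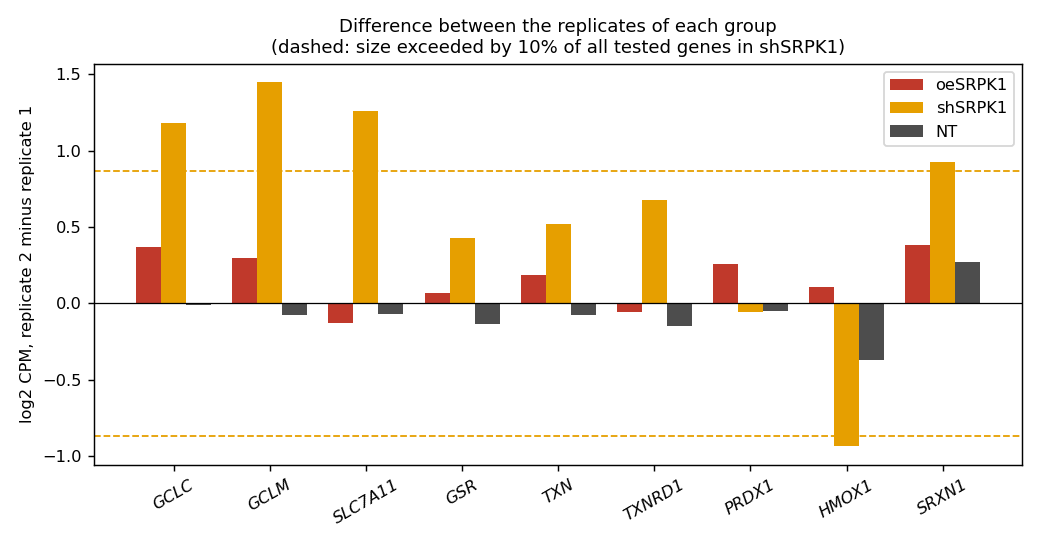
Log2 CPM of the second library minus that of the first in each group for the 9 tested genes, with 1 bar per gene and group and dashed lines at the size that 10% of all tested genes exceeded in shSRPK1. In shSRPK1 GCLM (1.45), SLC7A11 (1.26) and GCLC (1.18) lie above 1 and HMOX1 (-0.94) lies below 0, while all oeSRPK1 and NT bars are smaller than 0.5 in size.

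Relative to the NT mean, the median log2 difference over the 9 tested members was -1.0 and -1.02 in the oeSRPK1 libraries, -0.54 in the first shSRPK1 library and 0.12 in the second. In the first, 8 of the 9 members lay below both NT libraries, as did 43.4% of all tested genes. In the second 4 of the 9 did, near the 42.3% of all tested genes. The calls against NT changed with the library left out. Without the first shSRPK1 library, GCLC (1.09, adjusted p = 3.79e-06, range over all alternatives up to 0.655) and HMOX1 (0.58, adjusted p = 0.00798) were called higher and no member lower. Without the second, HMOX1 was called higher (1.52, adjusted p = 7.36e-08) and 5 members were called lower, namely GCLM (-1.22), GSR (-0.54), TXN (-0.40), TXNRD1 (-0.90) and SLC7A11 (-1.53), with the lone library assumed to vary like the other groups. The sign of GCLC therefore differed by library, at -0.10 without the second. HMOX1 was the 1 member called in the same direction with either shSRPK1 library left out.

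Set against the shSRPK1 libraries, oeSRPK1 again had the lower RNA for most members, here with HMOX1 among them. For HMOX1 the oeSRPK1 values (21.9 and 23.5 CPM) overlapped those of NT (29.1 and 22.5 CPM), and the shSRPK1 values (73.2 and 38.2 CPM) lay above both. The called genes were PRDX1 at 0.473 times shSRPK1 (0.376 to 0.594, log2 -1.08 ± 0.14, adjusted p = 0.00352), GCLC at 0.223 times (0.118 to 0.422, log2 -2.17 ± 0.38, adjusted p = 0.0132), GSR at 0.637 times (0.494 to 0.821, adjusted p = 0.0247), HMOX1 at 0.403 times (0.242 to 0.674, log2 -1.31 ± 0.31, adjusted p = 0.0277) and TXN at 0.622 times (0.466 to 0.831, adjusted p = 0.0317). GCLM was at 0.289 times (0.125 to 0.668, adjusted p = 0.0517, and 0.0115 in DESeq2, range over all alternatives 1.83e-11 to 0.228), SRXN1 at 0.319 times (0.126 to 0.778, adjusted p = 0.0680) and TXNRD1 at 0.723 times (0.510 to 1.03, adjusted p = 0.157). SLC7A11 had near equal means, at 0.927 times with an interval of 0.502 to 1.71 (adjusted p = 0.858), and its libraries overlapped. So 5 of 9 members were called lower and 0 higher, beside 11.3% and 11.5% of all tested genes. The unadjusted test gave 7 lower and 0 higher, and DESeq2 6 lower and 0 higher. In 8 of 9 both oeSRPK1 libraries lay below both shSRPK1 libraries, as in 30.5% of all tested genes, and the median log2 fold change was -1.08, beside 0.00 over all tested genes. SRXN1, among the 8 and in this median, passed the low-count filter only through the other groups, so it is no independent support. This comparison shares its oeSRPK1 libraries with the comparison against NT.

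Leaving out 1 library moved this count too. It was 2 without either NT library (PRDX1 and GCLC), 0 without the first oeSRPK1 library and 1 without the second (PRDX1). Without the first shSRPK1 library, leaving the one with the higher levels, all 9 were called lower. Without the second, 6 were called lower and SLC7A11 was called higher (0.61, adjusted p = 0.000285, range over all alternatives 0.000138 to 0.966). When only the 4 libraries compared entered the fit, 2 were called.

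Divided by the merged length of all annotated exons of a gene, the genes ranked differently from their raw CPM. This length can exceed that of any 1 transcript, so the ranks between genes depend on it. In oeSRPK1 the mean CPM per kilobase was 356 for PRDX1, 235 for TXN, 229 for TXNRD1, 89.8 for SLC7A11, 43.0 for GSR, 22.9 for GCLC, 12.9 for GCLM, 9.44 for HMOX1 and 0.163 for SRXN1. In shSRPK1 PRDX1 led at 753, ahead of TXN at 377, TXNRD1 at 316, GCLC at 103 and SLC7A11 at 96.9. In NT PRDX1 stood at 904, TXNRD1 at 457, TXN at 410.0, SLC7A11 at 165, GSR at 84.1, GCLC at 67.3, GCLM at 55.2, HMOX1 at 10.7 and SRXN1 at 0.522. By this measure PRDX1 had the highest mean of the 9 in every group. TXN and TXNRD1 overlapped in oeSRPK1 and did not in NT, where both TXNRD1 values were the higher.

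Ratios between partners of a complex or a reaction are given as a description. The ratio of GCLC to GCLM, both per kilobase, was 1.73 and 1.82 in oeSRPK1, 2.65 and 2.2 in shSRPK1, and 1.19 and 1.25 in NT. GCLM had less RNA per kilobase of merged exons than its partner in every library, an order that depends on these lengths. Both construct groups lay above NT, that is, GCLM was lower relative to GCLC there than in NT. SLC7A11 works as a pair with the heavy chain SLC3A2, and their ratio was 0.497 and 0.437 in oeSRPK1, 0.586 and 0.849 in shSRPK1, and 1.44 and 1.56 in NT. SLC3A2 itself was higher in oeSRPK1, at 977 and 1018 CPM against 608 and 533 CPM in NT (log2 0.81 ± 0.22, adjusted p = 0.0404). The ratio of TXNRD1 to TXN was 1.06 and 0.895 in oeSRPK1, 0.785 and 0.876 in shSRPK1, and 1.14 and 1.08 in NT. The ratio of PRDX1 to TXN was 1.47 and 1.55 in oeSRPK1, 2.47 and 1.66 in shSRPK1, and 2.19 and 2.22 in NT. Of the 12 comparisons of these 4 ratios, those whose groups did not overlap had a two-sided exact permutation p of 0.333, the smallest that 2 libraries against 2 allow, so no ratio could pass a threshold.

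Over the 6 libraries, pairs of tested genes without SLC7A11 or HMOX1 had Pearson r between 0.709 and 0.996 (21 pairs). Pairs with SLC7A11 or HMOX1 had r between -0.55 and 0.891 (15 pairs). The ranges overlap, as TXNRD1 had r of 0.891 with SLC7A11 and 0.709 with GCLC. SLC7A11 and HMOX1 had the lowest r with the members' mean profile, so setting them apart raises the lower end for the remaining pairs. The split therefore describes these values and tests nothing. With the mean profile of the members, r was 0.996 for TXN, 0.993 for GCLM and 0.985 for GSR, but 0.651 for SLC7A11 and 0.254 for HMOX1. Each member is itself part of that mean, which raises its r, so these values do not compare with those of genes outside it. Of genes outside the 10, the profiles most like that mean were those of FTL (r = 0.999), MIPOL1 (0.999), LAMB1 (0.998), GPC4 (0.997) and PDGFD (0.996). FTL, the light chain of the iron store ferritin, had 2953 and 3501 CPM in oeSRPK1, 6022 and 10064 CPM in shSRPK1, and 9807 and 9235 CPM in NT. These r values describe 6 libraries that fall in 3 groups and share their depth and scaling, and they carry no test.

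Further genes of the same pathways were counted from lists of known members, whose counts are to be read against the shares of all tested genes called. Of 16 tested genes of glutathione synthesis, recycling and breakdown, excluding the 10, 3 were called higher and 2 lower in oeSRPK1 than in NT, with a median log2 fold change of 0.27. Of all tested genes 11.2% were higher and 9.45% lower, so these few calls are close to that background. The aminopeptidase LAP3 rose (log2 1.92 ± 0.14, adjusted p = 0.000426), at 202 and 197 CPM in oeSRPK1 against 51.8 and 53.7 CPM in NT. The glutamate and cysteine carrier SLC1A1 rose (0.86 ± 0.18, adjusted p = 0.0157), and GGCT, an enzyme of glutathione breakdown, fell (-0.89 ± 0.21, adjusted p = 0.0217). In shSRPK1 against NT, 2 were higher and 1 lower, beside 5.43% and 3.75% of all tested genes. LAP3 rose (1.30 ± 0.14, adjusted p = 0.00396), GGT7 of the gamma-glutamyltransferase family rose (0.45 ± 0.11, adjusted p = 0.0425) and SLC1A1 fell (-0.91 ± 0.19, adjusted p = 0.0269). SLC1A1 thus lay on opposite sides of NT, at 73.2 and 64.6 CPM in oeSRPK1, 24.2 and 16.4 CPM in shSRPK1, and 36.6 and 39.7 CPM in NT, and oeSRPK1 against shSRPK1 gave 1.77 ± 0.19 (adjusted p = 0.00189). In that last comparison 2 of the 16 were higher and 2 lower, beside 11.5% and 11.3% of all tested genes. The lower genes were GGT7 and the glutathione synthetase GSS (-0.55 ± 0.15, adjusted p = 0.0321).

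Glutathione peroxidases and transferases counted 2 higher and 6 lower of 19 tested in oeSRPK1 against NT, beside 11.2% and 9.45% of all tested genes, with a median of -0.45. The microsomal transferase MGST1 fell to 95.8 and 127 CPM in oeSRPK1, against 343 and 328 CPM in NT (-1.60 ± 0.16, adjusted p = 0.000976). GSTM2 (-1.85 ± 0.17, adjusted p = 0.000706), GSTM4 (-1.60 ± 0.31, adjusted p = 0.0110) and GSTM3 (-0.94 ± 0.14, adjusted p = 0.00485) also fell, though the near-identical GSTM copies can lose or trade reads in counting and their values are uncertain. GPX1, a cytosolic selenium-dependent peroxidase, and GSTO1, an omega-class transferase, moved against the list, with 0.49 ± 0.12 (adjusted p = 0.0277) and 0.64 ± 0.13 (adjusted p = 0.0152). For shSRPK1 against NT 0 of the 19 were higher and 3 lower by edgeR (2 and 5 at an unadjusted p under 0.05, 0 and 3 in DESeq2), beside 5.43% and 3.75% of all tested genes, with a median of -0.04, among them GPX8 of the endoplasmic reticulum (-0.70 ± 0.11, adjusted p = 0.0116) and GPX1 (-0.69 ± 0.12, adjusted p = 0.0195). GPX1 had 101 and 94.9 CPM in oeSRPK1, 47.0 and 39.4 CPM in shSRPK1, and 69.5 and 70.0 CPM in NT, and oeSRPK1 exceeded shSRPK1 by 1.18 ± 0.12 (adjusted p = 0.00184). That comparison counted 3 of 19 higher and 6 lower, beside 11.5% and 11.3% of all tested genes.

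Thioredoxins, glutaredoxins and other peroxiredoxins counted 3 of 25 higher and 2 lower in oeSRPK1 against NT, close to the 11.2% and 9.45% of all tested genes, with a median of -0.05. The peroxiredoxin PRDX2 fell (-0.67 ± 0.11, adjusted p = 0.00676), with 46.8 and 48.1 CPM in oeSRPK1 against 76.3 and 73.9 CPM in NT, and TXNRD3, a thioredoxin-glutathione reductase, fell (-1.04 ± 0.17, adjusted p = 0.00659). The mitochondrial reductase TXNRD2 rose (0.69 ± 0.15, adjusted p = 0.0163), as did the methionine sulfoxide reductase MSRA (0.80 ± 0.18, adjusted p = 0.0199). The 3 thioredoxin reductase genes thus did not move together. The shSRPK1 libraries had 2 higher than NT, TXNRD2 (0.69 ± 0.14, adjusted p = 0.0277) and the endoplasmic reticulum peroxiredoxin PRDX4 (0.72 ± 0.17, adjusted p = 0.0397), and 1 was lower, the methionine sulfoxide reductase MSRB3 (-0.72 ± 0.15, adjusted p = 0.0271). In oeSRPK1 against shSRPK1 4 were higher and 2 lower, beside 11.5% and 11.3% of all tested genes.

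Of 14 tested genes that handle superoxide, peroxide, haem and iron, 5 were called lower and 0 higher in oeSRPK1 than in NT by edgeR (8 and 0 at an unadjusted p under 0.05, 5 and 0 in DESeq2), beside 9.45% and 11.2% of all tested genes, with a median of -0.49. Catalase (CAT), which splits hydrogen peroxide, fell (-1.57 ± 0.13, adjusted p = 0.000454), with 24.4 and 23.3 CPM in oeSRPK1, 53.8 and 49.9 CPM in shSRPK1, and 75.3 and 66.9 CPM in NT. Its 3 groups did not overlap. FTL (-1.56 ± 0.25, adjusted p = 0.00595), the haem-synthesis enzyme FECH (-1.51 ± 0.20, adjusted p = 0.00299) and BLVRA, which reduces the biliverdin that HMOX1 makes (-0.53 ± 0.11, adjusted p = 0.0151), fell as well. For shSRPK1 against NT 1 was lower and 0 higher by edgeR (4 and 1 at an unadjusted p under 0.05, 1 and 0 in DESeq2), the transferrin receptor TFRC (-0.87 ± 0.14, adjusted p = 0.0139), beside 3.75% lower and 5.43% higher of all tested genes. In oeSRPK1 against shSRPK1 7 were lower and 2 higher, beside 11.3% and 11.5%.

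Of 18 genes of selenoprotein synthesis and function, which TXNRD1 as a selenoenzyme depends on in part, 1 was higher and 2 lower in oeSRPK1 than in NT, beside 11.2% and 9.45% of all tested genes. SELENOS of the endoplasmic reticulum rose (0.98 ± 0.15, adjusted p = 0.00539), and SEPHS1 (-0.64 ± 0.14, adjusted p = 0.0157) and SELENON (-0.62 ± 0.16, adjusted p = 0.0309) fell. In shSRPK1 against NT, SELENOO alone was called, higher (0.60 ± 0.14, adjusted p = 0.0390), and 0 lower by edgeR (3 and 2 at an unadjusted p under 0.05, 1 and 0 in DESeq2), beside 5.43% and 3.75% of all tested genes. Against shSRPK1, oeSRPK1 had 2 higher and 1 lower, beside 11.5% and 11.3% of all tested genes.

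The last list held NFE2L2 itself, its inhibitor KEAP1, the competing repressor BACH1, and a well-known target, the quinone reductase NQO1. In oeSRPK1 against NT, 2 of these 4 were lower and 0 higher by edgeR, at an unadjusted p under 0.05 and in DESeq2 alike, beside 9.45% and 11.2% of all tested genes. NQO1 fell to 735 and 956 CPM in oeSRPK1, with 2039 and 3200 CPM in shSRPK1 and 3639 and 3742 CPM in NT (log2 against NT -2.13 ± 0.24, adjusted p = 0.00166). KEAP1 fell by 0.47 ± 0.13 on the log2 scale (adjusted p = 0.0355). NFE2L2 RNA had 573 and 527 CPM in oeSRPK1, 395 and 573 CPM in shSRPK1, and 689 and 702 CPM in NT, and was not called. In shSRPK1 against NT, 0 of the 4 were called by edgeR or DESeq2 (1 higher and 2 lower at an unadjusted p under 0.05). In oeSRPK1 against shSRPK1 2 were lower and 0 higher by edgeR, at an unadjusted p under 0.05 and in DESeq2 alike, NQO1 (-1.63 ± 0.24, adjusted p = 0.00446) and BACH1 (-0.52 ± 0.14, adjusted p = 0.0325).

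The list counts depended on the libraries as the members' did. In oeSRPK1 against NT, over the 6 settings that leave out 1 library, the genes called in either direction ranged from 1 to 11 for glutathione synthesis, recycling and breakdown, 2 to 12 for peroxidases and transferases, 0 to 14 for thioredoxins and their relatives, 1 to 9 for superoxide, peroxide and haem-iron handling, 0 to 10 for selenoprotein genes and 0 to 3 for the NRF2 list. The highest counts came without an shSRPK1 library. For shSRPK1 against NT every list ranged from 0 upward, to at most 10.

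**Figure D4:**
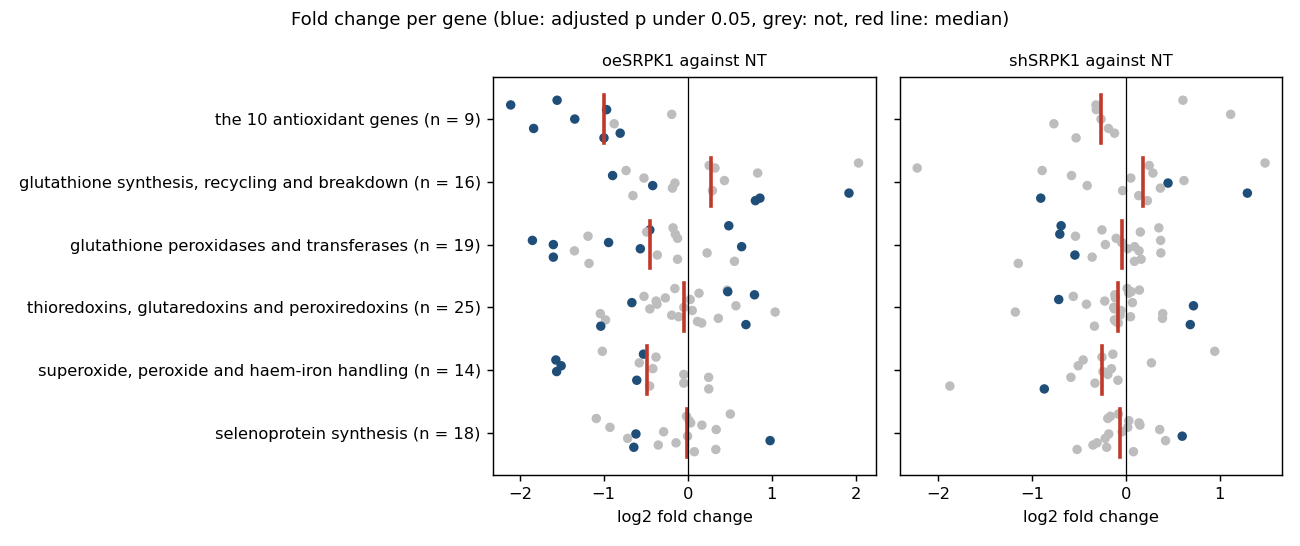
Log2 fold changes of the tested genes of 6 lists for oeSRPK1 and for shSRPK1 against NT, with 1 point per gene, blue where the adjusted p is under 0.05 and grey otherwise, and a red line at each list's median. For oeSRPK1 against NT the median of the antioxidant genes is -1.0. It is -0.49 for superoxide, peroxide and haem-iron handling and -0.45 for glutathione peroxidases and transferases. Thioredoxins and their relatives (-0.05) and selenoprotein genes (-0.01) lie close to 0, and glutathione synthesis, recycling and breakdown (0.27) lies above.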

How the data were processed

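Poly(A) RNA was sequenced as paired reads from 6 libraries of T98G cells, 2 per group. The authors deposited 1 table per library of raw counts, that is, whole numbers of reads for each gene. Per the submitters' processing notes, FastQC, Trimmomatic and STAR 2.5.3 were used with hg38. How reads were counted, on which annotation and with what strand rule is not given in the sources used here. The last 5 entries of each table name no gene and entered neither depth nor test. They held 8.13% to 11.1% of each total as reads outside genes, 11.95% to 13.1% as reads aligned to several places, and 3.04% to 3.37% as ambiguous reads. Near-identical copies lose reads in this way.

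A gene name table gave symbols for 41124 identifiers and GENCODE 29 for 15629 more, and 3730 stayed without one. Positions, merged exon lengths and exon overlaps came from GENCODE 29 (GRCh38). CPM per kilobase divides by the merged length of all annotated exons of a gene and not by the length of a transcript.

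Genes were kept by edgeR's filterByExpr set to at least 10 counts and 15 in total, and the 14732 kept hold 99.8% of gene reads. CPM values are scaled by TMM. All 6 libraries entered 1 quasi-likelihood fit (edgeR 4.0.16, R 4.3.3, robust), since 2 per group give a poor estimate of spread alone, and the common biological coefficient of variation was 14.5%. Calls are at an adjusted p under 0.05 after Benjamini-Hochberg adjustment over all genes tested. Standard errors and intervals come from the quasi-likelihood F statistic. Log2 CPM for profiles and replicate differences used a prior count of 2. The procedure was also run on simulated counts with 1 spread per gene shared by all groups, whereas the shSRPK1 libraries here lay further apart than the others. No result of that run is used here. Alternatives were DESeq2 1.42.0, its size factors, no filter, a stricter filter (5 CPM in 2 libraries), only the libraries compared, a block on replicate number, and omission of each library in turn. The labels call the 2 libraries of a group biological replicates but do not say if their cultures were separate. The p-values therefore measure only how far these samples spread, which may be technical.

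The members, the pathway lists and the tests were chosen with earlier results of these data known. Genes named from a list are up to 4 called genes with the smallest adjusted p in a comparison, and any that moved against the rest of its list. NFE2L2 and the partner genes of the ratios are also named for their role beside a member. A gene of the NRF2 pathway is not reported here.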

Additional observations from a re-analysis of the deposited data

How the results depend on the processing

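Of the 12 member calls over the 3 comparisons, 12 were kept with DESeq2 size factors, 11 of 11 tested with the stricter filter, 11 with the DESeq2 test, 11 with the replicate block, 10 with no filter and 9 with only the libraries compared. Without 1 library, 1 to 3 calls were kept when it was an NT or oeSRPK1 library and 12 when it was an shSRPK1 library. Signs turned only without an shSRPK1 library. Over all 6 omissions the log2 fold change of shSRPK1 against NT ranged from -0.10 (without the second) to 1.09 for GCLC, and up to 0.24, 0.12 and 0.28 (without the first) from -1.22 for GCLM, -0.40 for TXN and -0.76 for SRXN1. For SLC7A11 in oeSRPK1 against shSRPK1 it ranged from -0.64 to 0.61 (without the second). The cause was not tested.

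Members called higher in shSRPK1 against NT numbered 1 with DESeq2, 1 with the replicate block (HMOX1, adjusted p = 0.0426) and 1 with no filter, which also called 1 lower. In oeSRPK1 against shSRPK1, 2 were called lower with only the libraries compared. Over all tested genes, same-numbered libraries' deviations correlated at 0.0235 for oeSRPK1 and shSRPK1, -0.0186 for oeSRPK1 and NT, and 0.0104 for shSRPK1 and NT. These values show no shared deviation by replicate number, but cannot tell whether the cultures were paired. Under the block, GCLM was called in oeSRPK1 against shSRPK1 (adjusted p = 0.0302) and SRXN1 was not in oeSRPK1 against NT (adjusted p = 0.0692).

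Over all genes, with 1644 higher and 1392 lower for oeSRPK1 against NT, 800 and 552 for shSRPK1 against NT, and 1690 and 1671 for oeSRPK1 against shSRPK1, no filter gave 2179 lower in the first, 1541 higher and 1075 lower in the second, and 2615 lower in the third. Only the libraries compared gave 3090 higher and 3241 lower, 89 and 40, and 759 and 746. Without 1 library the counts ranged from 216 to 3058 higher and 69 to 3363 lower, from 24 to 2355 and 5 to 2240, and from 106 to 2843 and 38 to 3309. Members called higher ranged from 0 to 0, 0 to 2 and 0 to 1, and lower from 1 to 8, 0 to 5 and 0 to 9.

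SRPK1 had 0.50 in oeSRPK1 against shSRPK1 under the block (adjusted p = 0.0609) and with only the libraries compared (0.0920), and 0.27 against NT with only the libraries compared (0.0232). Without 1 library it ranged from 0.17 to 0.38 in oeSRPK1 against NT, -0.37 to -0.062 in shSRPK1 against NT and 0.33 to 0.63 in oeSRPK1 against shSRPK1. The second oeSRPK1 library, with 3891549 gene reads, limits what can be seen of SRXN1.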

Other observations

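TXNIP, the inhibitor of thioredoxin, was named after its values were seen. It had 1383 and 1331 CPM in oeSRPK1, 840 and 4078 CPM in shSRPK1, and 2595 and 2753 CPM in NT, and was not called in any comparison with all 6 libraries. Its shSRPK1 libraries lay further apart, on either side of all 4 others, than those of any of the 9 tested antioxidant genes.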
